A study of Rattus norvegicus with 14 samples.

Results

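Gene expression in the abdominal aorta of rats with experimental preeclampsia (ExpPE) was compared to that of non-pregnant rats (NPr) over all 19357 genes of the deposited table. The comparison took 9 of the 14 arrays of the study, 5 ExpPE and 4 NPr, with 1 array per animal. The ExpPE rats were pregnant Wistar outbred rats that received lipopolysaccharide (LPS), the endotoxin of the bacterial outer membrane, on day 14 of pregnancy. The dose was 1 µg per kg in 2 ml over 1 h, and the aortas were taken on day 20. The NPr rats were age-matched females that received saline in place of LPS and whose tissue was taken on diestrus, the quiescent phase of the oestrous cycle. Both groups carried a cannula in the jugular vein. A further 5 pregnant rats with a saline infusion (Pr) shared the fit, and their levels are given beside those of ExpPE and NPr where useful. The ExpPE rats differed from the NPr rats both in pregnancy and in LPS, so that the parts of pregnancy and of LPS in a difference between these groups cannot be told apart, and the Pr rats are set beside both at the end. The study put no LPS-infused non-pregnant rats on arrays. It measured a small set of genes in such rats by quantitative PCR instead, and those values are not used here. The model rests on 1 low dose of LPS and the aorta is a large conductance vessel.

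The groups were those of the column names of the table that carries gene annotation. The same intensities were also deposited under sample titles that exchange Pr with ExpPE but name the NPr arrays alike. Under those titles the 5 animals called ExpPE here were Pr and the 5 called Pr were ExpPE, and 41 genes passed an adjusted p under 0.05 against NPr, the 19 genes below among them. Which naming holds was not settled from the intensities, and each difference between ExpPE and Pr would turn its sign. Animals are numbered here in the order of the columns. The array names also hold a letter, whose meaning is not given: NPr rats 1 to 3 had A, NPr rat 4 and ExpPE rats 1 and 2 had B, and ExpPE rats 3 to 5 had C. Only letter B therefore holds both groups, and differences within it are given below where they bear on a result.

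Interferons are secreted proteins of the antiviral defence. They bind receptors on most cells and activate Janus kinases, and these phosphorylate transcription factors such as Stat2, which join Irf9 and bind a short element in the promoters of interferon-stimulated genes. The products of these genes degrade viral RNA, trap virus particles, tag proteins with Isg15 or present peptides to T cells. LPS is sensed by Tlr4 with its partners Lbp, Cd14 and Ly96, and this receptor feeds both the NF-kappaB pathway and interferon production. Pregnancy is a state of systemic change in immune cells, lipid stores and blood formation, and an aorta sample can carry perivascular fat, nerve, blood and adjacent muscle beside the vessel wall.

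The tissue carried the markers of aorta at a high level in every animal. The smooth muscle actin gene Acta2 had log2 intensities of 12.53, 12.05, 12.89, 12.70 and 12.87 in ExpPE rats and 12.70, 12.93, 12.67 and 13.05 in NPr rats, and the smooth muscle myosin gene Myh11 had 11.36, 10.56, 12.14, 11.94 and 12.13 in ExpPE rats and 11.62, 11.85, 11.40 and 12.37 in NPr rats. Per array, the median log2 intensity ranged over 5.61 to 5.67 in ExpPE rats and 5.58 to 5.63 in NPr rats. A background level of 3.91 was set at the 95th percentile of the mean log2 intensity of 1217 odorant, vomeronasal, taste and trace amine receptor genes, whose own median was 2.66, against 5.62 over all genes. Values near or under this level are close to the noise of the arrays. ExpPE rats 1 and 2 stood apart from the other animals. Their median correlation with their own group over all genes was 0.952 and 0.959, against 0.968 to 0.974 in the other ExpPE rats and 0.971 to 0.984 in the NPr rats.

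ExpPE compared to NPr showed 19 genes with an adjusted p under 0.05 (0.0982% of the genes tested), of which 18 were higher (0.093%) and 1 was lower (0.00517%) in ExpPE. At the threshold of the study, a fold change over 1.4 together with an unadjusted p under 0.05, 605 genes passed (3.13%), 384 higher (1.98%) and 221 lower (1.14%) in ExpPE. The counts for each gene list below are to be read beside these shares over all genes. In 47 of the higher and 14 of the lower genes neither group mean was over the background level. An unadjusted p under 0.05 alone was reached by 1474 genes (7.61%), 773 higher (3.99%) and 701 lower (3.62%). In 242 genes (1.25%) every ExpPE animal lay above every NPr animal, and in 159 genes (0.821%) every ExpPE animal lay below. The median difference over all genes was 0.02 on the log2 scale, and 10287 of the 19357 genes had a positive difference. The median difference of the 384 higher genes was 0.67 and that of the 221 lower genes -0.63. The higher share of the genes at the study threshold, 63.5%, depended on scaling: with the arrays centred on their median log2 intensity it was 46.6%, 301 higher and 345 lower. The count past the adjusted p was 11, 12, 12 and 10 without ExpPE rats 2, 3, 4 and 5, and 9, 8 and 12 without NPr rats 1, 2 and 3. The count at the study threshold was 1205, 361 and 1033 without ExpPE rats 1, 2 and 3. Within letter B, 373 of the 384 higher genes and 161 of the 221 lower genes had the same direction. The fit that chose these genes included the animals of letter B, so agreement in direction is in part built in.

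**Figure D1:**
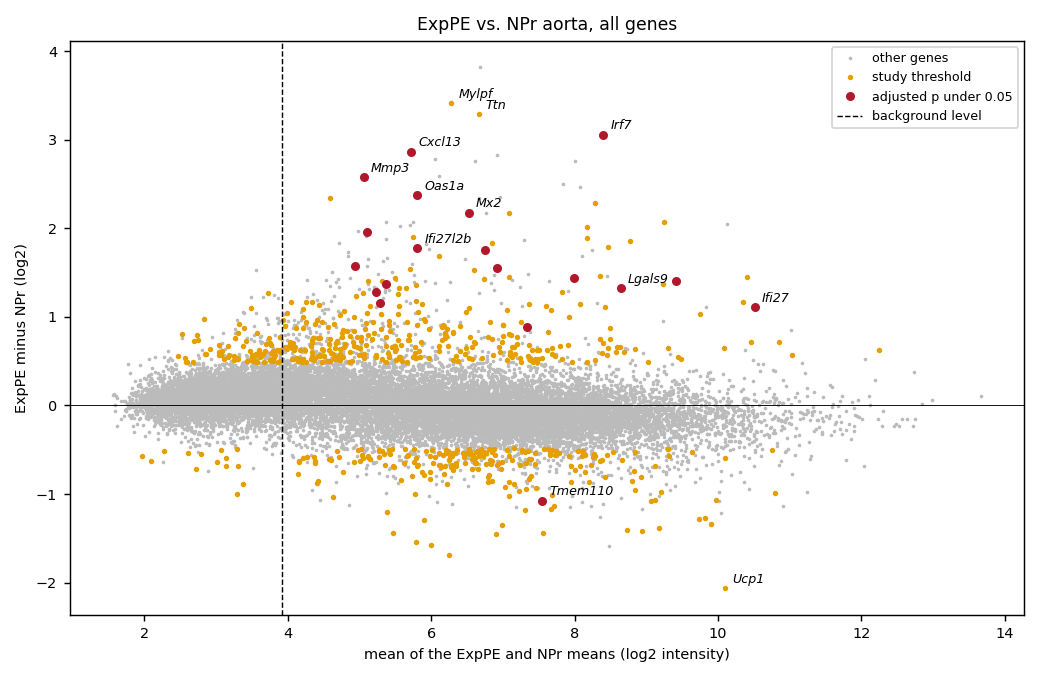
Each point is 1 gene, with the mean of the ExpPE and NPr means on the x axis and the ExpPE minus NPr difference on the y axis, both in log2 units of intensity. Of the 19 genes past the adjusted p (red), 18 lie above 0 and Tmem110 lies below, and the 605 genes at the study threshold include them (other such genes in orange). The dashed line is the background level of 3.91.

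The gene with the smallest p was Ifi27l2b, an interferon-inducible gene of the Ifi27 family. It had log2 intensities of 6.65, 6.74, 6.70, 6.66 and 6.71 in ExpPE rats and 4.96, 4.55, 5.25 and 4.91 in NPr rats, a difference of 1.78 ± 0.14 (SE, adjusted p = 3.47e-05), a 3.42-fold higher level. The largest difference of the 19 genes was that of Irf7, the transcription factor that amplifies interferon production. Irf7 had 8.97, 9.28, 10.43, 9.95 and 11.02 in ExpPE rats and 6.93, 6.92, 6.93 and 6.71 in NPr rats, a difference of 3.06 ± 0.40 (SE, adjusted p = 0.00566), which is 8.33-fold. The NPr rats were within a narrow range for Irf7, while the ExpPE rats spread over more than 2 log2 units with rats 1 and 2 lowest. Irf9, the DNA-binding partner of Stat2, had 7.64, 7.57, 8.20, 7.61 and 7.85 in ExpPE rats and 6.83, 6.80, 6.74 and 7.19 in NPr rats, a difference of 0.88 ± 0.15 (SE, adjusted p = 0.0471). In each of the 19 genes the ExpPE and NPr animals did not overlap. Among the 18 genes that rose, ExpPE rat 1 had the lowest ExpPE value in 10, and ExpPE rat 3 the highest in 10.

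The calls differed in how far they rested on single animals and on the letter of the array names. Dhx58, Ifi27l2b, Irf7, Mx2, Oas1a, Oas2, Oasl and Siglec1 passed the adjusted p in each of the 9 fits that left out 1 animal, Oas1b in 8, RT1-S3 in 7 and Cxcl13 in 4. Isg15, Ifi27, Lgals9 and Lgals3bp passed in only 2 of 9, with adjusted p up to 0.117, 0.168, 0.117 and 0.111 by limma. Irf9, Mmp3, Rtp4 and Tmem110 passed in only 1 of 9. The animals of letter B were part of the fit that chose the 19 genes, so agreement in direction with it is in part built in. Within letter B, ExpPE rats 1 and 2 against NPr rat 4, each of the 19 genes had the same direction. The difference there was 0.41 for Irf9, 0.79 for Lgals3bp, 0.85 for Dhx58, 0.98 for Isg15, 0.99 for Oas2, 1.00 for Siglec1 and 1.03 for Oas1b, each smaller than over all animals by more than 1.5 times. With the letter as a block in the fit, Ifi27l2b, Lgals9, Oas1a and Oasl kept the call and the other 15 of the 19 lost it, with limma adjusted p such as 0.0579 for Irf7, 0.0606 for Mx2, 0.2 for Isg15 and 0.405 for Irf9.

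Promoter windows from RefSeq (GRCr8), which run from 250 bases before to 50 bases after a gene's start, were read for the 19 genes, since most of them are interferon-stimulated genes or factors. Windows were found for 11 of the 18 genes that rose and for Tmem110. The interferon-stimulated response element was searched by its core, GAAA repeated after a gap of any 2 bases, on both strands, so that it reads TTTC, any 2 bases, TTTC where it lies on the other strand. Matches may overlap. It was present in 7 of the 11 windows (63.6%), against 578 of the 16933 windows of all measured genes (3.41%) and 28 of the 290 windows of genes higher at the study threshold (9.66%), those 7 included. Without the genes past the adjusted p it was in 21 of 279 (7.53%), and among the genes lower at the study threshold it was in 6 of 176 (3.41%). The 7 stretches are shown because they hold the element in the genes that carry the result, 5′ to 3′ on the strand of the gene, with the matches and 25 bases on each side and the matches in capitals.
Oas1a (chr12:41330400-41330465, plus strand): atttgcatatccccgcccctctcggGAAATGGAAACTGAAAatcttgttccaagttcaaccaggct
Oas1b (chr12:41395871-41395936, minus strand): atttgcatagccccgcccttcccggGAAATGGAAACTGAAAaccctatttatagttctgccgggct
Irf7 (chr1:205800058-205800117, minus strand): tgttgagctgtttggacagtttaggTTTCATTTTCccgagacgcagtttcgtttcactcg
RT1-S3 (chr20:2675391-2675450, plus strand): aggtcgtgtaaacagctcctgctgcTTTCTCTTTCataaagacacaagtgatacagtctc
Lgals9 (chr10:64428052-64428111, minus strand): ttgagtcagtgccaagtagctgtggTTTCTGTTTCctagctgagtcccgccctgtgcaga
Lgals3bp (chr10:104127864-104127923, minus strand): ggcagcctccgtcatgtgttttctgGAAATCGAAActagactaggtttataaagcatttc
Ifi27 (chr6:128355118-128355262, plus strand): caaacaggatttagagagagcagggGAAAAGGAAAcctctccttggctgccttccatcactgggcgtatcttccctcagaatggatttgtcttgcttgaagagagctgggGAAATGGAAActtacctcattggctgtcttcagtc
In Oas1a and Oas1b the matches overlap in a single run that is the same in both genes and begins 41 bases before the start in Oas1a and 59 in Oas1b. In Irf7 the match lies 69 bases before the start, in RT1-S3 112, in Lgals9 16 and in Lgals3bp 50. Ifi27 has 2 separate matches, 169 and 84 bases before its start. The windows of Oasl, Cxcl13, Mmp3, Irf9 and Tmem110 held no match to these letters. The shorter core TTCNNNGAA, which is bound by Stat dimers and reads the same on both strands, was in 3 of the 11 windows (27.3%), those of Oas1a, Oas1b and Irf9, and in 1325 of the 16933 windows of all measured genes (7.82%). A match is a description of the letters and not a shown binding site. Ifi27l2b, Mx2, Oas2, Siglec1, Dhx58, Isg15 and Rtp4 had no entry.

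The oligoadenylate synthetases, which make short 2′-5′ linked adenylate chains that switch on the RNA-degrading enzyme RNase L, were the family with the highest share of called genes. Of 11 members measured, 4 rose and 6 were higher at the study threshold, with a median difference of 0.71, or 1.17 over the 8 members above background. Oas1a had 6.70, 6.72, 7.29, 6.67 and 7.56 in ExpPE rats and 4.94, 4.23, 4.46 and 4.85 in NPr rats, a difference of 2.37 ± 0.23 (SE, adjusted p = 4.04e-04). Oasl, an Oas-like protein, had 5.85, 5.87, 5.82, 5.87 and 5.95 in ExpPE rats and 4.60, 4.34, 4.77 and 4.67 in NPr rats, a difference of 1.28 ± 0.14 (SE, adjusted p = 0.00163). The ExpPE values of Oasl lay between 5.82 and 5.95. Oas2 had 5.18, 5.81, 6.07, 5.72 and 5.84 in ExpPE rats and 4.19, 3.90, 4.01 and 4.50 in NPr rats, a difference of 1.57 ± 0.20 (SE, adjusted p = 0.00468). Oas1b, a close paralogue of Oas1a, had 6.09, 5.15, 6.82, 6.04 and 6.31 in ExpPE rats and 4.33, 3.62, 3.93 and 4.59 in NPr rats, a difference of 1.96 ± 0.27 (SE, adjusted p = 0.00824). Probes of such paralogues may share signal, which was not tested. Oasl2 had a difference of 1.06 ± 0.24 (SE, unadjusted p = 5.05e-04, adjusted p = 0.287) with no overlap of the animals, and Oas3 one of 0.54 ± 0.19 (SE, unadjusted p = 0.0139, adjusted p = 0.64) with overlap.

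The list of interferon-stimulated effectors held 39 measured genes, of which 6 rose, 16 were higher at the study threshold and none was lower, with 37 positive differences and a median of 0.48. The ubiquitin-like modifier Isg15 had 6.85, 7.40, 7.98, 7.70 and 8.18 in ExpPE rats and 5.70, 5.79, 5.85 and 6.15 in NPr rats, a difference of 1.75 ± 0.27 (SE, adjusted p = 0.0226). Ube2l6, the conjugating enzyme that passes Isg15 to its targets, had 6.29, 6.57, 6.88, 6.52 and 6.70 in ExpPE rats and 5.29, 5.86, 5.81 and 5.87 in NPr rats, a difference of 0.88 ± 0.16 (SE, unadjusted p = 8.75e-05, adjusted p = 0.0807). Ifi27, a membrane protein strongly induced by interferons, had 11.07, 11.03, 11.41, 10.87 and 10.95 in ExpPE rats and 9.67, 9.80, 10.49 and 9.87 in NPr rats, a difference of 1.11 ± 0.18 (SE, adjusted p = 0.0252). Lgals9, a galectin that binds sugar chains on immune cells, had 8.72, 9.63, 9.33, 9.26 and 9.58 in ExpPE rats and 8.06, 7.88, 8.42 and 7.58 in NPr rats, a difference of 1.32 ± 0.21 (SE, adjusted p = 0.0226). Lgals3bp, a secreted glycoprotein that binds galectins, had 9.60, 10.21, 10.52, 10.08 and 10.17 in ExpPE rats and 8.17, 8.92, 8.63 and 9.12 in NPr rats, a difference of 1.41 ± 0.22 (SE, adjusted p = 0.0226). Lgals9 and Lgals3bp had ExpPE rat 1 lowest in the group, yet above the NPr animals. Rtp4, an interferon-induced protein first known as a chaperone of taste and odorant receptors, had 5.98, 5.72, 6.19, 5.67 and 5.72 in ExpPE rats and 4.68, 4.55, 4.75 and 4.83 in NPr rats, a difference of 1.16 ± 0.18 (SE, adjusted p = 0.0226). Ly6e, an interferon-inducible surface protein anchored to the membrane by a lipid, had 10.10, 10.99, 10.29, 10.18 and 9.79 in ExpPE rats and 9.12, 9.34, 9.36 and 9.13 in NPr rats, a difference of 1.03 ± 0.21 (SE, unadjusted p = 2.43e-04, adjusted p = 0.188).

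All 16 measured interferon-induced GTPases and Schlafen genes had a positive difference, with a median of 0.50, but only 1 rose, and 6 were higher at the study threshold. The median was 0.23 within letter B. The gene that rose was Mx2, a dynamin-like GTPase that blocks viruses, with 7.30, 7.84, 8.03, 7.56 and 7.32 in ExpPE rats and 5.11, 5.20, 5.70 and 5.73 in NPr rats and a difference of 2.17 ± 0.27 (SE, adjusted p = 0.00468). Mx1, its nuclear relative in rodents, had 5.98, 5.83, 6.94, 6.04 and 6.73 in ExpPE rats and 5.15, 4.86, 4.54 and 5.39 in NPr rats, a difference of 1.32 ± 0.29 (SE, unadjusted p = 4.32e-04, adjusted p = 0.27). The growth regulator Slfn3 had 6.83, 5.62, 7.32, 6.82 and 6.93 in ExpPE rats and 4.77, 4.66, 4.64 and 5.12 in NPr rats, a difference of 1.90 ± 0.36 (SE, unadjusted p = 9.33e-05, adjusted p = 0.0821), and Slfn13 one of 0.94 ± 0.22 (SE, unadjusted p = 8.19e-04, adjusted p = 0.369). In each of Mx1, Slfn3 and Slfn13 the groups did not overlap, but the differences did not pass the adjusted p.

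Among 12 measured sensors of viral RNA and DNA, 1 rose and 5 were higher at the study threshold. Dhx58, a helicase that regulates the RIG-I-like receptors, had 5.93, 6.11, 6.26, 6.04 and 5.89 in ExpPE rats and 4.30, 4.49, 4.75 and 5.17 in NPr rats, a difference of 1.37 ± 0.18 (SE, adjusted p = 0.00629). Ddx58, the gene of RIG-I itself, had 7.17, 7.29, 7.69, 7.27 and 7.50 in ExpPE rats and 6.61, 6.91, 6.85 and 6.88 in NPr rats, a difference of 0.57 ± 0.14 (SE, unadjusted p = 0.00111, adjusted p = 0.398), and the RNA-editing enzyme Adar one of 0.55 ± 0.15 (SE, unadjusted p = 0.00205, adjusted p = 0.503). The endosomal RNA receptor Tlr3 had a difference of -0.38 ± 0.22 (SE, unadjusted p = 0.105, adjusted p = 0.641) in the other direction. In the signalling list, 28 measured genes of interferon regulatory factors, receptors and JAK-STAT had a median of 0.07, and 2 of them rose, Irf7 and Irf9. Stat2 had 7.72, 7.82, 7.87, 7.64 and 7.69 in ExpPE rats and 6.90, 7.23, 7.23 and 7.52 in NPr rats, a difference of 0.53 ± 0.20 (SE, unadjusted p = 0.0175, adjusted p = 0.64). The cytokine signalling inhibitor Socs3 had 6.53, 6.57, 7.0, 7.11 and 5.85 in ExpPE rats and 5.46, 6.13, 5.64 and 5.60 in NPr rats, a difference of 0.90 ± 0.38 (SE, unadjusted p = 0.0306, adjusted p = 0.64). Of the 7 measured genes of interferons themselves, 1 had a group mean over the background level, none passed an unadjusted p under 0.05 and the median difference was -0.01. Ifng, the gene of interferon gamma, had 2.47, 2.66, 2.46, 2.51 and 2.37 in ExpPE rats and 3.07, 2.42, 2.68 and 2.30 in NPr rats, at the level of the background genes in all animals.

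Class I molecules show peptides from inside the cell to cytotoxic T cells, and their genes respond to interferons. RT1-S3, a non-classical class I gene of the rat, had 8.21, 8.65, 8.85, 9.01 and 8.80 in ExpPE rats and 7.07, 7.19, 7.42 and 7.40 in NPr rats, a difference of 1.44 ± 0.20 (SE, adjusted p = 0.00857). Of 25 measured genes of class I and antigen processing, RT1-S3 alone rose, 5 were higher at the study threshold and 21 had a positive difference, with a median of 0.20. RT1-A1 had a difference of 0.81 ± 0.21 (SE, unadjusted p = 0.00157, adjusted p = 0.462) with no overlap, and Tapbp, which loads peptides, one of 0.33 ± 0.17 (SE, unadjusted p = 0.066, adjusted p = 0.64), also with no overlap. RT1 genes are similar in sequence, and signal shared between their probes was not tested. The 10 measured class II genes had a median of 0.25, and none passed the unadjusted p.

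**Figure D2:**
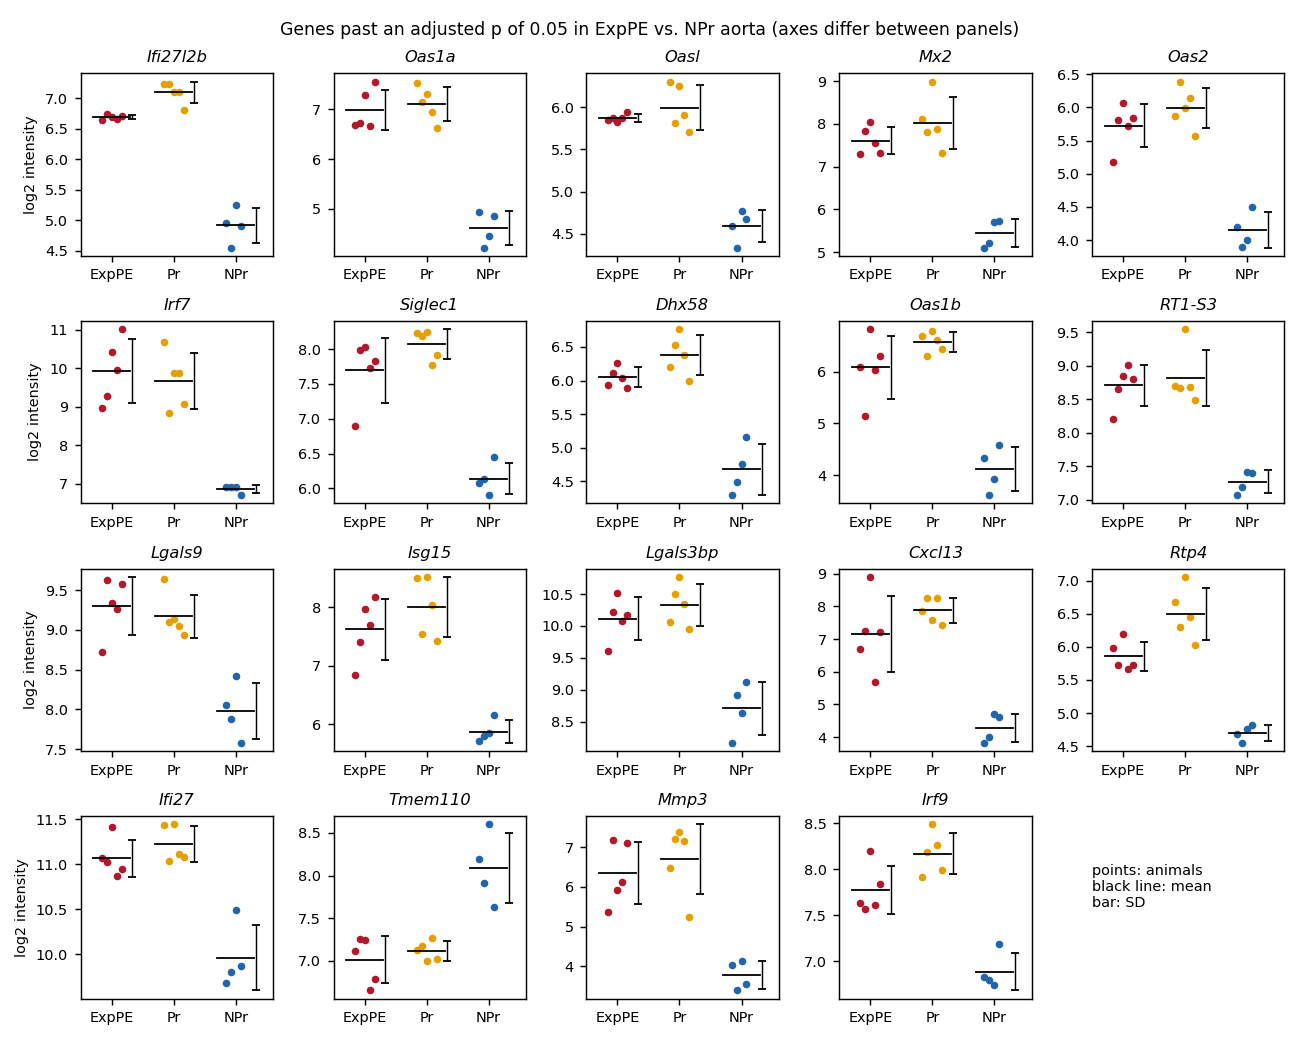
Log2 intensity of each animal (points) with the group mean (line) and SD (bar) for the 19 genes past an adjusted p of 0.05, for ExpPE (n = 5), Pr (n = 5) and NPr (n = 4) rats. In each panel the ExpPE animals lie clear of the NPr animals, and only Tmem110 is lower in ExpPE.

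Of the other genes past the adjusted p, Cxcl13 encodes a chemokine that attracts B cells to lymphoid follicles. It had 6.70, 7.26, 8.90, 5.69 and 7.20 in ExpPE rats and 3.83, 3.99, 4.70 and 4.61 in NPr rats, a difference of 2.87 ± 0.46 (SE, adjusted p = 0.0226), 7.29-fold, with ExpPE rat 3 highest and rat 4 lowest. The values of NPr rats 1 and 2 were near the background level of 3.91, so this fold is uncertain. The 12 measured B cell markers had a median difference of 0.07. Of these Ms4a1, the gene of CD20, had 2.68, 2.82, 2.65, 2.92 and 3.52 in ExpPE rats and 3.18, 2.83, 3.05 and 2.69 in NPr rats, values under the background level in both groups. Tnfsf13b, the B cell survival factor BAFF, had a difference of 0.82 ± 0.38 (SE, unadjusted p = 0.046, adjusted p = 0.64). Mmp3, the protease stromelysin that degrades matrix proteins and activates other proteases, had 5.37, 7.18, 5.93, 6.13 and 7.11 in ExpPE rats and 4.03, 3.38, 4.12 and 3.56 in NPr rats, a difference of 2.58 ± 0.44 (SE, adjusted p = 0.0357). The NPr mean of Mmp3, 3.77, lay under the background level, so no fold is given. Of 28 measured matrix proteases and inhibitors Mmp3 alone rose, and the gelatinase Mmp2 had 10.64, 11.50, 11.67, 11.59 and 11.64 in ExpPE rats and 10.67, 11.19, 10.67 and 11.16 in NPr rats, a difference of 0.48 ± 0.22 (SE, unadjusted p = 0.045, adjusted p = 0.64). Tmem110 encodes a protein of the endoplasmic reticulum that aids store-operated calcium entry. It was the 1 gene that fell, with 7.11, 7.26, 7.25, 6.65 and 6.79 in ExpPE rats and 8.19, 7.92, 8.60 and 7.63 in NPr rats and a difference of -1.07 ± 0.18 (SE, adjusted p = 0.0322). Within letter B its difference was -0.45.

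Siglec1, the sialic acid-binding receptor sialoadhesin of macrophages and itself interferon-inducible, rose. It had 6.90, 7.99, 8.03, 7.73 and 7.82 in ExpPE rats and 6.08, 6.13, 5.90 and 6.45 in NPr rats, a difference of 1.55 ± 0.21 (SE, adjusted p = 0.00566), with ExpPE rat 1 below the other ExpPE rats. Of 19 measured macrophage markers, 4 were higher at the study threshold, against 1.98% of all genes. Of these 19, 18 had a positive difference and the median was 0.28. This median was 0.43 without ExpPE rat 1, 0.16 without ExpPE rat 2 and -0.03 within letter B. The complement receptor gene Vsig4 had 3.84, 4.77, 4.49, 3.97 and 4.70 in ExpPE rats and 3.27, 2.85, 2.75 and 3.46 in NPr rats, a difference of 1.27 ± 0.44 (SE, unadjusted p = 0.0107, adjusted p = 0.64). The scavenger receptor Cd163 had 8.48, 9.17, 9.14, 8.92 and 8.89 in ExpPE rats and 8.10, 8.28, 8.16 and 8.52 in NPr rats, a difference of 0.66 ± 0.29 (SE, unadjusted p = 0.0388, adjusted p = 0.64), while the macrophage growth factor receptor Csf1r had 8.53, 9.77, 9.43, 9.13 and 9.40 in ExpPE rats and 8.86, 9.17, 9.19 and 9.18 in NPr rats, a difference of 0.15 ± 0.24 (SE, unadjusted p = 0.533, adjusted p = 0.835). The macrophage score, the mean over the list of log2 values centred per gene over the 14 arrays, was -0.49, 0.22, 0.18, -0.04 and 0.00 in ExpPE rats and -0.55, -0.33, -0.39 and -0.28 in NPr rats. It overlapped between groups, with ExpPE rat 1 among the NPr rats. In whole tissue, more or fewer cells of a type and more or less RNA per cell cannot be told apart.

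Markers of other leukocytes showed no call. T and NK cell markers (19 measured) had a median of 0.11, neutrophil markers (14) 0.10 and mast cell markers (12) 0.08, and none of these genes passed an unadjusted p under 0.05. The T cell receptor subunit Cd3e had 4.36, 5.85, 4.52, 5.50 and 5.93 in ExpPE rats and 5.78, 5.11, 4.82 and 4.19 in NPr rats. The CC chemokines and receptors (30 measured) had a median of 0.09 with no gene at the study threshold, and of the 21 CXC genes Cxcl13 alone reached it. Cxcl9, a chemokine induced by interferon gamma, had 6.48, 7.79, 6.86, 7.35 and 6.85 in ExpPE rats and 5.17, 6.90, 5.86 and 6.99 in NPr rats, a difference of 0.84 ± 0.66 (SE, unadjusted p = 0.223, adjusted p = 0.692).

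Complement is a cascade of plasma proteins that marks microbes and cells for removal. Of 34 measured complement genes, 8 were higher and 0 lower at the study threshold, against 1.98% and 1.14% of all genes. Of these 34, 27 had a positive difference, and the median was 0.30. None passed the adjusted p. Masp1, the protease that starts the lectin pathway, came closest, with 6.13, 7.01, 6.32, 6.51 and 6.39 in ExpPE rats and 5.18, 5.14, 5.07 and 5.05 in NPr rats and a difference of 1.36 ± 0.25 (SE, unadjusted p = 6.74e-05, adjusted p = 0.0652). Factor B, Cfb, the protease of the alternative pathway, had 8.47, 8.76, 9.60, 9.04 and 9.56 in ExpPE rats and 6.94, 7.56, 7.68 and 8.32 in NPr rats, a difference of 1.46 ± 0.35 (SE, unadjusted p = 9.57e-04, adjusted p = 0.378). C2, its counterpart in the classical pathway, had 8.14, 8.94, 8.35, 7.79 and 7.78 in ExpPE rats and 7.08, 7.33, 7.23 and 6.87 in NPr rats, a difference of 1.07 ± 0.24 (SE, unadjusted p = 4.99e-04, adjusted p = 0.287). C6, a part of the membrane attack complex, had 7.49, 8.62, 8.54, 7.97 and 8.21 in ExpPE rats and 7.12, 7.29, 6.96 and 6.79 in NPr rats, a difference of 1.13 ± 0.27 (SE, unadjusted p = 9.34e-04, adjusted p = 0.378). In Masp1, Cfb, C2 and C6 the groups did not overlap. C3, the central protein, had 7.20, 7.29, 8.70, 8.24 and 9.38 in ExpPE rats and 5.70, 5.50, 5.41 and 7.37 in NPr rats, a difference of 2.17 ± 0.57 (SE, unadjusted p = 0.00185, adjusted p = 0.498). Here NPr rat 4 was above ExpPE rats 1 and 2, and within letter B the difference was -0.12.

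Acute phase proteins are made in response to inflammatory cytokines, mainly in liver. Of 18 measured genes 9 had a group mean over the background level and 4 were higher at the study threshold, each with no overlap. Over all genes, 1.98% were higher at this threshold, and 1.25% had every ExpPE animal above every NPr animal. The protease inhibitor Serpina3n had 8.70, 9.54, 9.68, 9.09 and 10.13 in ExpPE rats and 6.52, 7.13, 6.74 and 8.19 in NPr rats, a difference of 2.28 ± 0.54 (SE, unadjusted p = 7.70e-04, adjusted p = 0.355). Chi3l1, a chitinase-like glycoprotein of activated macrophages and smooth muscle, had 8.18, 8.70, 9.53, 9.36 and 9.85 in ExpPE rats and 6.69, 7.06, 7.45 and 7.73 in NPr rats, a difference of 1.89 ± 0.46 (SE, unadjusted p = 0.00101, adjusted p = 0.381). Lbp, the LPS-binding protein, had 10.39, 10.72, 11.26, 11.02 and 11.28 in ExpPE rats and 9.32, 9.77, 9.60 and 10.38 in NPr rats, a difference of 1.17 ± 0.30 (SE, unadjusted p = 0.00145, adjusted p = 0.459). The metallothionein gene Mt1m had a difference of 1.45 ± 0.44 (SE, unadjusted p = 0.00552, adjusted p = 0.64). In Serpina3n, Chi3l1 and Lbp NPr rat 4 was the highest NPr animal, and the Serpina3n difference within letter B was 0.93. The score of the list did not overlap between groups, with 0.07, 0.16, 0.13, 0.21 and 0.28 in ExpPE rats and -0.31, -0.36, -0.17 and -0.19 in NPr rats.

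The 34 measured genes of LPS sensing and the NF-kappaB response had a median of 0.06, and 2 were higher at the study threshold, Lbp and Il10. The cytokine Il10 had 3.21, 3.59, 4.06, 3.61 and 3.28 in ExpPE rats and 3.36, 3.09, 2.92 and 2.71 in NPr rats, a difference of 0.53 ± 0.24 (SE, unadjusted p = 0.0454, adjusted p = 0.64), near the background level. Il6, a main inducer of the acute phase, had 4.46, 4.05, 6.25, 6.18 and 3.43 in ExpPE rats and 3.93, 3.58, 3.53 and 3.56 in NPr rats, a difference of 1.22 ± 0.58 (SE, unadjusted p = 0.0515, adjusted p = 0.64), and only ExpPE rats 3 and 4 stood clearly above the NPr rats. The adaptor Myd88 had 7.64, 7.64, 7.78, 7.50 and 7.48 in ExpPE rats and 6.96, 7.60, 7.43 and 7.35 in NPr rats, a difference of 0.28 ± 0.16 (SE, unadjusted p = 0.11, adjusted p = 0.642). The 12 measured inflammasome genes had a median of 0.12 and none at the study threshold.

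Of 49 lists, 6 had scores in which every ExpPE animal lay above every NPr animal, and 0 had the reverse. These were the interferon-stimulated effectors, the oligoadenylate synthetases, the GTPases and Schlafens, the regulatory factors with receptors and JAK-STAT, class I with antigen processing, and the acute phase proteins. Except for the acute phase proteins, each of these lists held genes past the adjusted p. All lists were chosen with earlier results of these data known, so the separation is in part built in. Over all single genes, 1.25% had every ExpPE animal above every NPr animal and 0.821% had the reverse. The effector score was -0.09, 0.01, 0.27, -0.01 and 0.13 in ExpPE rats and -0.55, -0.58, -0.47 and -0.49 in NPr rats.

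**Figure D3:**
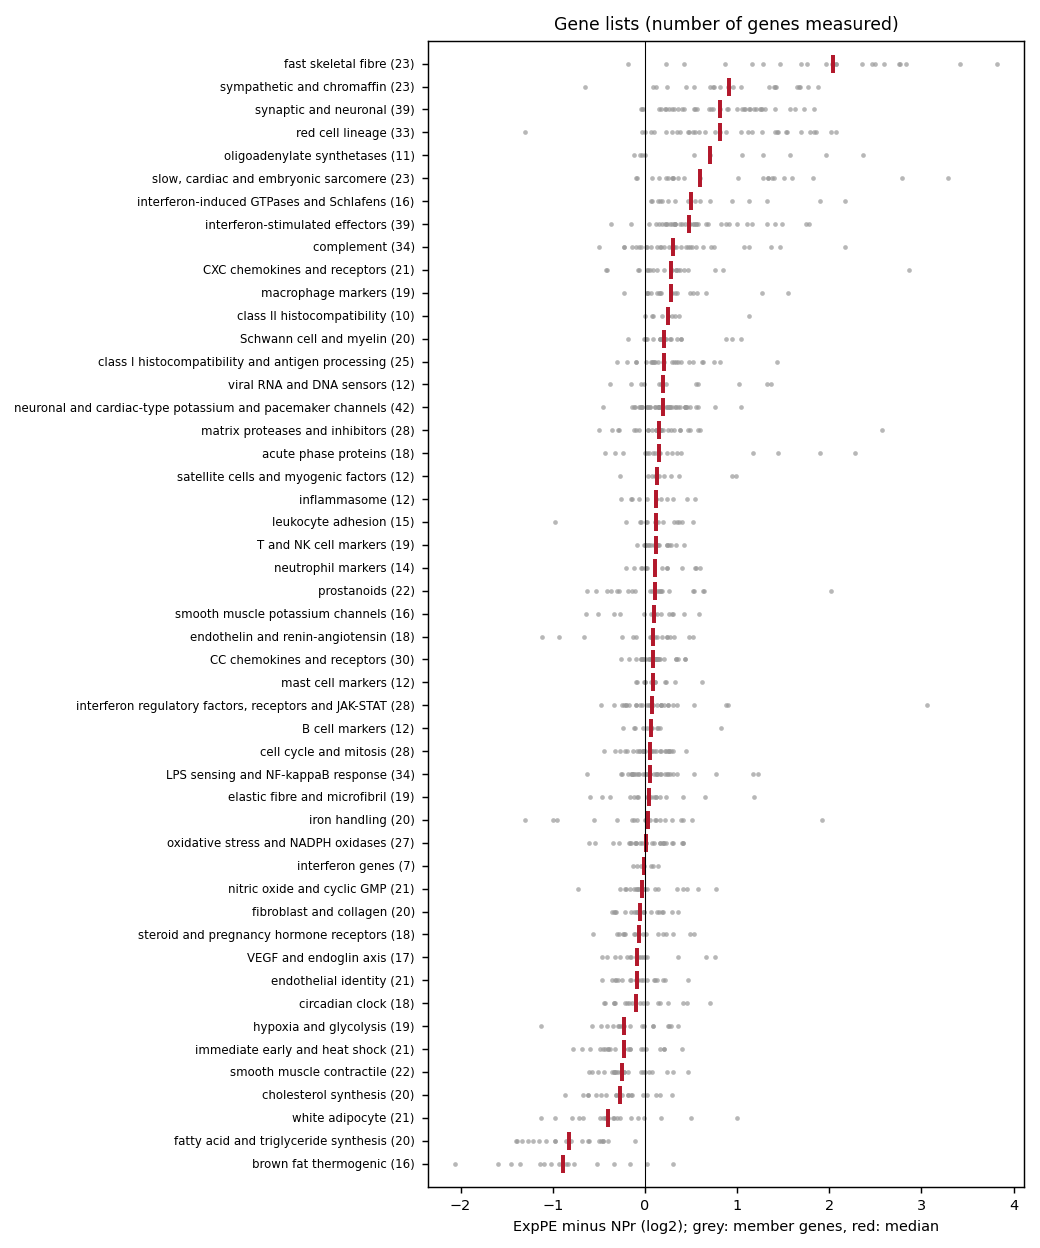
ExpPE minus NPr difference (log2) of each member gene (grey) and the median of each of the 49 lists (red), with the number of genes measured in brackets. Skeletal fibre, nerve, red cell and interferon lists have the highest medians, and the fat lists the lowest, at -0.89 for brown fat.

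The lowest medians belonged to fat. Brown adipocytes burn lipid for heat through Ucp1, the uncoupling protein of their mitochondria. The 16 measured brown fat genes had a median difference of -0.89, the 20 genes of fatty acid and triglyceride synthesis -0.83, with 0 positive, and the 21 white adipocyte genes -0.40. None passed the adjusted p, and 3, 4 and 1 were lower at the study threshold. Ucp1 had 11.60, 8.98, 7.99, 8.41 and 8.35 in ExpPE rats and 11.87, 11.28, 12.31 and 9.06 in NPr rats, a difference of -2.07 ± 0.89 (SE, unadjusted p = 0.0361, adjusted p = 0.64), the largest negative difference at the study threshold. ExpPE rat 1 was at the level of NPr rats 1 to 3, and NPr rat 4 was at the level of the other ExpPE rats. Gpam, which catalyses the first step of triglyceride synthesis, had 9.32, 8.62, 8.15, 8.36 and 7.95 in ExpPE rats and 10.19, 10.16, 10.36 and 8.75 in NPr rats, a difference of -1.38 ± 0.33 (SE, unadjusted p = 8.38e-04, adjusted p = 0.369). Acsl5, which activates fatty acids, had 8.79, 8.80, 7.78, 8.21 and 7.61 in ExpPE rats and 10.22, 9.73, 10.39 and 8.26 in NPr rats, a difference of -1.41 ± 0.37 (SE, unadjusted p = 0.00189, adjusted p = 0.502). Acly, which supplies acetyl-CoA for fatty acid synthesis, had 10.44, 9.94, 8.24, 9.26 and 8.04 in ExpPE rats and 10.97, 10.78, 11.04 and 9.02 in NPr rats, a difference of -1.27 ± 0.54 (SE, unadjusted p = 0.0336, adjusted p = 0.64). Adipoq, the adipocyte hormone adiponectin, had 11.98, 11.65, 11.02, 10.92 and 10.79 in ExpPE rats and 11.48, 11.48, 11.84 and 10.61 in NPr rats, a difference of -0.08 ± 0.31 (SE, unadjusted p = 0.805, adjusted p = 0.938).

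The brown fat score was 1.36, -0.18, -0.99, -0.50 and -0.83 in ExpPE rats and 1.36, 0.49, 1.56 and -0.87 in NPr rats. Within letter B, where NPr rat 4 was the 1 NPr animal, the median differences were 1.49 for brown fat, 1.18 for fatty acid and triglyceride synthesis and 1.61 for white adipocytes, opposite in sign to the medians over all animals. The differences of Ucp1, Gpam and Acsl5 within letter B were 1.23, 0.22 and 0.54. The median of the brown fat list was -1.38 without ExpPE rat 1, and -0.63, -0.60 and -1.45 without NPr rats 1, 3 and 4. That of the white adipocyte list was -0.68, -0.24 and -0.26 without ExpPE rats 1, 4 and 5, and -0.21, -0.16 and -0.79 without NPr rats 1, 3 and 4. Each of these stayed negative. Other genes with large negative differences followed the same animals: Otop1, a proton channel known from brown fat in mice, had 7.86, 6.25, 5.56, 5.72 and 5.46 in ExpPE rats and 8.51, 7.30, 8.84 and 5.85 in NPr rats, and Pnpla3, a lipid droplet protein, had 9.26, 9.16, 7.07, 8.08 and 6.61 in ExpPE rats and 10.003, 9.75, 10.05 and 7.94 in NPr rats. A gene outside the fat lists did likewise: the angiotensin precursor Agt had 8.28, 6.69, 6.70, 6.68 and 6.60 in ExpPE rats and 8.43, 8.07, 8.47 and 6.74 in NPr rats. How far the amount of fat in each sample bears on these differences was not tested.

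The highest medians belonged to skeletal muscle and nerve, and they rested on few animals. The 23 measured genes of fast skeletal fibres had a median difference of 2.04, 22 were positive, and 1 was at the study threshold (Mylpf). The score was 2.61, 2.88, 0.27, 0.57 and -0.99 in ExpPE rats and -1.51, -1.50, 1.11 and -1.54 in NPr rats. Mylpf, a myosin light chain of fast fibres, had 9.88, 10.38, 7.21, 7.31 and 5.15 in ExpPE rats and 3.33, 3.54, 8.14 and 3.28 in NPr rats, a difference of 3.41 ± 1.59 (SE, unadjusted p = 0.0486, adjusted p = 0.64). Ttn, the giant spring protein of the sarcomere, had 10.78, 10.44, 7.06, 8.18 and 5.07 in ExpPE rats and 3.96, 3.90, 8.65 and 3.56 in NPr rats, a difference of 3.29 ± 1.5 (SE, unadjusted p = 0.045, adjusted p = 0.64). ExpPE rats 1 and 2 and NPr rat 3 were high in both genes, and ExpPE rat 5 was the lowest ExpPE rat. Without ExpPE rats 1 and 2 the median of the list was 0.86, and without NPr rat 3 as well it was 1.51. The part of adjacent muscle in these values was not tested. The smooth muscle contractile list had its lowest scores in ExpPE rats 1 and 2, with -0.48, -1.08, 0.38, 0.07 and 0.31 in ExpPE rats and -0.28, 0.11, -0.34 and 0.59 in NPr rats.

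The 23 sympathetic and chromaffin genes had a median of 0.91 and the 39 synaptic and neuronal genes 0.81. Their scores were high in ExpPE rats 1 and 2 alone, 2.58, 1.62, -0.62, -0.31 and -0.53 in ExpPE rats and -0.44, 0.29, -0.66 and -0.79 in NPr rats for the sympathetic list. Th, which catalyses the limiting step of catecholamine synthesis, had 9.80, 8.59, 3.10, 3.43 and 3.46 in ExpPE rats and 3.22, 6.10, 3.23 and 3.41 in NPr rats, and Dbh, which makes noradrenaline, had 11.43, 9.98, 4.00, 4.85 and 4.03 in ExpPE rats and 4.67, 7.35, 4.52 and 3.83 in NPr rats, so that NPr rat 2 came next in both. Without ExpPE rat 1 the medians were 0.42 for the sympathetic and 0.35 for the synaptic list, and without ExpPE rats 1 and 2 they were -0.05 and -0.03. Some genes of these lists were higher in every ExpPE rat. Ret, the receptor tyrosine kinase for the glial cell line-derived family of growth factors, had 7.02, 5.87, 5.43, 5.36 and 5.40 in ExpPE rats and 4.27, 4.69, 4.42 and 4.24 in NPr rats, a difference of 1.41 ± 0.28 (SE, unadjusted p = 1.37e-04, adjusted p = 0.115). Pcsk1, a convertase that cuts prohormones, had 6.57, 8.15, 7.59, 7.58 and 7.35 in ExpPE rats and 5.80, 6.38, 5.64 and 6.26 in NPr rats, a difference of 1.43 ± 0.42 (SE, unadjusted p = 0.00406, adjusted p = 0.634).

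Of 42 measured potassium and pacemaker channel genes of neuronal and cardiac type, 4 were higher at the study threshold, against 1.98% of all genes. Of these 42, 33 had a positive difference, and the median was 0.19. Over all 19357 genes, 10287 had a positive difference. Of the 1217 receptor genes that set the background level, 842 had a positive difference, with a median of 0.08. The median of the channel list was 0.06 over its 26 genes above background and 0.06 after a further quantile normalization. In 4 of the channel genes every ExpPE animal lay above every NPr animal, and in 1 every ExpPE animal lay below. Over all genes these shares were 1.25% and 0.821%. Kcna6, a voltage-gated potassium channel subunit, had 4.39, 4.36, 3.88, 4.05 and 3.91 in ExpPE rats and 3.74, 3.14, 3.27 and 3.26 in NPr rats, a difference of 0.76 ± 0.16 (SE, unadjusted p = 2.59e-04, adjusted p = 0.193). The pacemaker channel Hcn4 had 4.56, 4.90, 4.32, 4.49 and 4.41 in ExpPE rats and 4.14, 4.15, 4.10 and 3.91 in NPr rats, a difference of 0.46 ± 0.14 (SE, unadjusted p = 0.00522, adjusted p = 0.64), and Kcnq3, a subunit of the M channel, 5.96, 4.68, 3.75, 4.08 and 4.11 in ExpPE rats and 3.38, 3.70, 3.42 and 3.38 in NPr rats, a difference of 1.05 ± 0.36 (SE, unadjusted p = 0.0105, adjusted p = 0.64). The ExpPE animals lay above the NPr animals in each of Kcna6, Hcn4 and Kcnq3, yet most values were close to the background level of 3.91. ExpPE rats 1 and 2 held the highest values of each. The 16 smooth muscle potassium channels had a median of 0.10.

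Genes of the red cell lineage had mostly positive differences. Of 33 measured genes 11 were higher and 1 lower at the study threshold, against 1.98% and 1.14% of all genes. Of these 33, 30 had a positive difference, the median was 0.81, and none passed the adjusted p. The median was 0.50 without NPr rat 4 and 1.34 within letter B. Klf1, the erythroid transcription factor, had 5.25, 5.91, 7.11, 6.49 and 7.63 in ExpPE rats and 5.57, 4.72, 4.71 and 4.75 in NPr rats, a difference of 1.54 ± 0.46 (SE, unadjusted p = 0.00426, adjusted p = 0.64). Alas2, the first enzyme of haem synthesis in red cells, had 8.04, 10.75, 10.95, 10.36 and 11.82 in ExpPE rats and 10.81, 9.95, 9.07 and 7.24 in NPr rats, a difference of 1.12 ± 0.84 (SE, unadjusted p = 0.203, adjusted p = 0.683). In Alas2 ExpPE rat 1 was the lowest and ExpPE rat 5 the highest of the ExpPE rats, and NPr rat 4 was the lowest of all. The groups overlapped in each gene of the list. The beta globin gene Hbb had 12.18, 13.05, 13.13, 12.94 and 13.30 in ExpPE rats and 13.09, 12.97, 12.56 and 11.56 in NPr rats. The score of the list was -0.63, 0.34, 0.93, 0.38 and 1.38 in ExpPE rats and 0.50, -0.22, -0.51 and -1.35 in NPr rats. Tfrc, the transferrin receptor, was the member at a lower level, with 7.08, 5.37, 4.83, 4.43 and 4.51 in ExpPE rats and 6.93, 6.41, 7.21 and 5.62 in NPr rats and a difference of -1.30 ± 0.52 (SE, unadjusted p = 0.0254, adjusted p = 0.64). Alox15, a lipoxygenase also made by reticulocytes, had 6.88, 8.62, 10.79, 8.69 and 10.90 in ExpPE rats and 8.81, 7.46, 6.83 and 5.55 in NPr rats, a difference of 2.01 ± 0.89 (SE, unadjusted p = 0.0389, adjusted p = 0.64). The part of blood left in the vessel in these values was not tested.

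**Figure D4:**
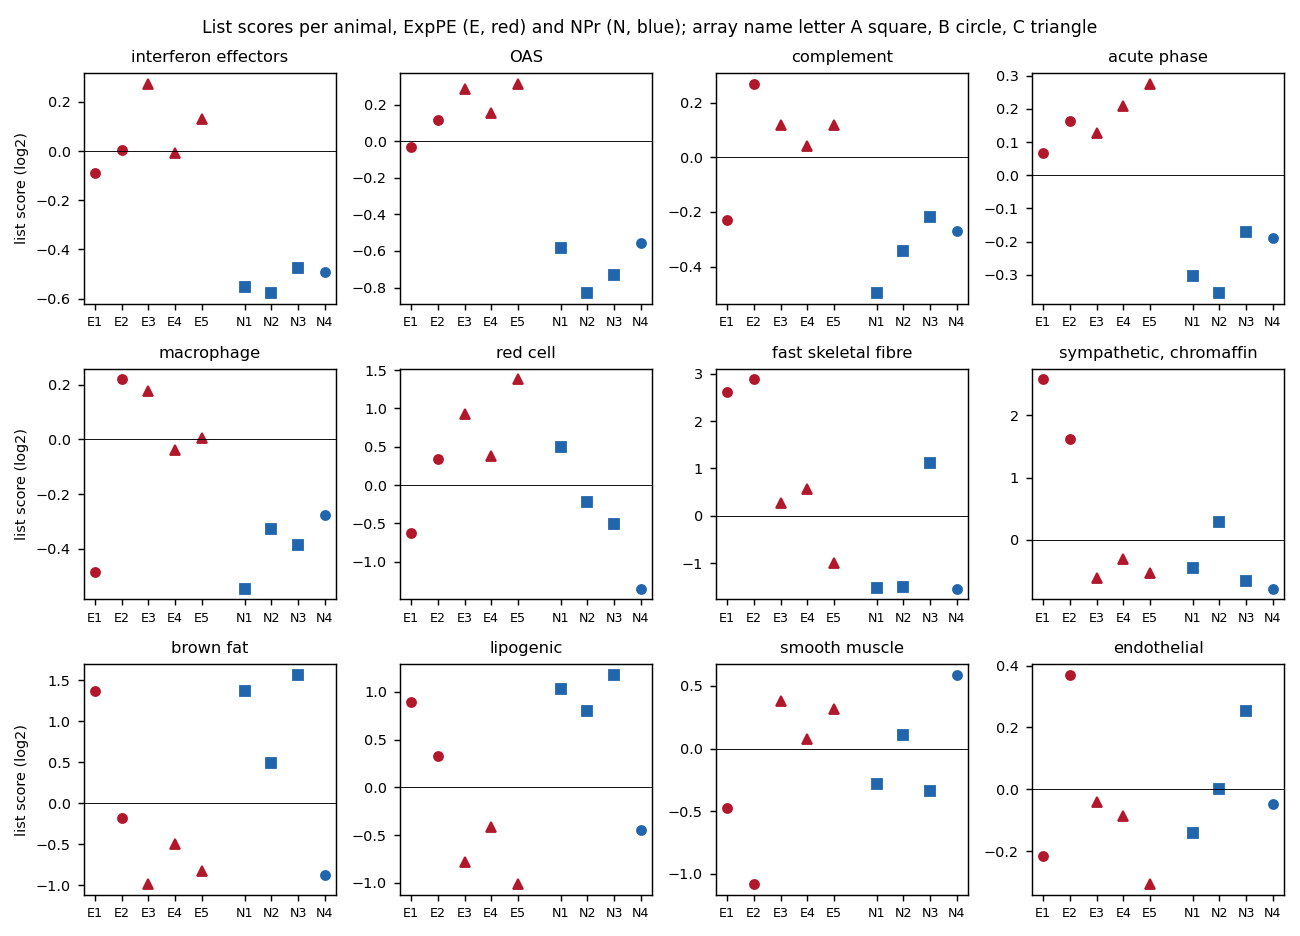
Scores of selected lists (mean of log2 values centred per gene over the 14 arrays) for each ExpPE rat (red, E1 to E5) and NPr rat (blue, N1 to N4), with the letter of the array name as the shape of the point. The interferon, oligoadenylate synthetase and acute phase scores separate the groups, while fibre and sympathetic scores are high in E1 and E2, and brown fat scores are high in E1 and N1 to N3.

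The cells of the vessel wall gave few differences. The 22 smooth muscle contractile genes had a median of -0.25 and the 21 endothelial genes -0.09, and in neither list did a gene pass an unadjusted p under 0.05. The smooth muscle median was -0.17 and -0.04 without ExpPE rats 1 and 2 in turn, 0.19 without both, -0.10 without NPr rat 4 and -1.45 within letter B. The endothelial cadherin Cdh5 had 9.57, 9.50, 8.75, 8.97 and 8.83 in ExpPE rats and 9.29, 9.32, 9.93 and 8.96 in NPr rats, a difference of -0.25 ± 0.21 (SE, unadjusted p = 0.25, adjusted p = 0.703). The 20 fibroblast and collagen genes had a median of -0.05. Adamtsl2, a secreted protein of the microfibrils, had 5.34, 6.82, 6.56, 6.76 and 6.40 in ExpPE rats and 5.08, 5.25, 4.93 and 5.50 in NPr rats, a difference of 1.18 ± 0.32 (SE, unadjusted p = 0.00204, adjusted p = 0.503), and the microfibril-associated Fbln1 one of 0.65 ± 0.28 (SE, unadjusted p = 0.0334, adjusted p = 0.64). Col6a6, a chain of collagen VI, had 5.95, 6.06, 6.28, 5.99 and 5.73 in ExpPE rats and 6.34, 6.73, 7.03 and 6.63 in NPr rats, a difference of -0.68 ± 0.15 (SE, unadjusted p = 5.42e-04, adjusted p = 0.295), with no overlap. Vcam1, which holds leukocytes to the vessel wall, had 7.95, 8.11, 9.55, 9.24 and 8.73 in ExpPE rats and 9.12, 10.31, 9.36 and 9.97 in NPr rats, a difference of -0.98 ± 0.42 (SE, unadjusted p = 0.0364, adjusted p = 0.64).

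Of the vasoactive systems, Agtr1a, the main receptor of angiotensin II in rat vessels, had 8.48, 8.06, 7.98, 7.90 and 8.04 in ExpPE rats and 7.39, 7.64, 7.70 and 7.55 in NPr rats, a difference of 0.52 ± 0.14 (SE, unadjusted p = 0.00199, adjusted p = 0.502), with no overlap. The endothelin gene Edn1 had 6.22, 6.16, 6.11, 6.03 and 5.09 in ExpPE rats and 5.88, 7.0, 6.64 and 6.82 in NPr rats, a difference of -0.66 ± 0.39 (SE, unadjusted p = 0.115, adjusted p = 0.643). The 21 genes of nitric oxide and cyclic GMP had a median of -0.03 and none at the study threshold. Among 22 prostanoid genes 4 were higher and 1 lower at the study threshold, against 1.98% and 1.14% of all genes. Pla2g2a, a secreted phospholipase that releases fatty acids, had 12.17, 12.64, 12.68, 12.58 and 12.73 in ExpPE rats and 11.27, 12.09, 12.06 and 12.30 in NPr rats, a difference of 0.63 ± 0.22 (SE, unadjusted p = 0.0124, adjusted p = 0.64). The oestrogen receptor Esr1 had 7.30, 8.41, 7.97, 7.81 and 7.58 in ExpPE rats and 6.95, 7.63, 7.05 and 7.51 in NPr rats, a difference of 0.53 ± 0.25 (SE, unadjusted p = 0.0476, adjusted p = 0.64). Of the iron genes, Bmp6, a growth factor that induces hepcidin in liver, had 7.39, 8.80, 8.56, 8.61 and 8.43 in ExpPE rats and 9.07, 9.54, 9.27 and 9.39 in NPr rats, a difference of -0.96 ± 0.25 (SE, unadjusted p = 0.00197, adjusted p = 0.502), with every ExpPE rat below the NPr rats. Hamp, hepcidin itself, had 4.98, 5.56, 4.86, 5.95 and 5.01 in ExpPE rats and 4.90, 6.52, 6.61 and 7.07 in NPr rats, a difference of -1.0 ± 0.39 (SE, unadjusted p = 0.0213, adjusted p = 0.64). ExpPE rat 1 had the lowest Bmp6 value.

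Beyond the lists, the genes next in rank that were higher at the study threshold included Slc16a14, a member of the monocarboxylate transporter family, with 7.01, 8.0, 6.75, 7.07 and 6.56 in ExpPE rats and 5.88, 6.37, 5.82 and 5.85 in NPr rats and a difference of 1.1 ± 0.24 (SE, unadjusted p = 3.57e-04, adjusted p = 0.247). Sned1, a protein of the extracellular matrix, had 7.83, 8.31, 8.78, 8.77 and 8.60 in ExpPE rats and 7.04, 7.35, 6.93 and 7.40 in NPr rats, a difference of 1.28 ± 0.28 (SE, unadjusted p = 3.99e-04, adjusted p = 0.266). Ebi3, a subunit of the IL-12 family of cytokines, had a difference of 0.77 ± 0.17 (SE, unadjusted p = 4.28e-04, adjusted p = 0.27), Srgap1, a GTPase-activating protein of the Slit pathway, one of 0.84 ± 0.19 (SE, unadjusted p = 5.59e-04, adjusted p = 0.295), Ogdhl, a mitochondrial dehydrogenase-like protein, one of 0.86 ± 0.20 (SE, unadjusted p = 6.12e-04, adjusted p = 0.312), and Sdk1, an adhesion protein, one of 0.90 ± 0.21 (SE, unadjusted p = 6.48e-04, adjusted p = 0.321). None of these passed the adjusted p. In Slc16a14, Sned1, Ebi3, Srgap1 and Ogdhl the groups did not overlap, and in Sdk1 they did.

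Of the lower genes next in rank, the ubiquitin ligase Rnf138 had 5.32, 5.24, 5.86, 5.37 and 5.43 in ExpPE rats and 6.02, 5.92, 6.16 and 6.22 in NPr rats, a difference of -0.63 ± 0.13 (SE, unadjusted p = 2.38e-04, adjusted p = 0.188). Psmg2, a chaperone of proteasome assembly, had 5.66, 5.31, 5.53, 5.22 and 5.72 in ExpPE rats and 6.30, 6.07, 5.88 and 6.06 in NPr rats, a difference of -0.59 ± 0.13 (SE, unadjusted p = 4.56e-04, adjusted p = 0.276). Otud6b, a deubiquitinating enzyme, had a difference of -0.64 ± 0.17 (SE, unadjusted p = 0.00151, adjusted p = 0.459), and Naa20, the catalytic subunit of an N-terminal acetyltransferase, one of -0.52 ± 0.13 (SE, unadjusted p = 0.0016, adjusted p = 0.463). In Rnf138, Psmg2, Otud6b and Naa20 every ExpPE animal lay below every NPr animal. Krcc1 had 7.02, 6.71, 7.11, 6.76 and 6.92 in ExpPE rats and 7.54, 7.36, 7.30 and 7.36 in NPr rats, a difference of -0.49 ± 0.10 (SE, unadjusted p = 3.41e-04, adjusted p = 0.244), again with no overlap. Coq10b, which binds coenzyme Q in mitochondria, had -1.02 ± 0.25 (SE, unadjusted p = 0.001, adjusted p = 0.381), Tmem97, a sterol-regulated membrane protein, -0.69 ± 0.17 (SE, unadjusted p = 0.00102, adjusted p = 0.381) and Rexo2, a mitochondrial oligoribonuclease, -0.54 ± 0.14 (SE, unadjusted p = 0.00152, adjusted p = 0.459) as differences, all with overlap. Hmgcs1, an early enzyme of cholesterol synthesis, had 9.05, 7.80, 7.60, 7.30 and 7.06 in ExpPE rats and 8.65, 8.72, 8.84 and 8.31 in NPr rats, a difference of -0.87 ± 0.32 (SE, unadjusted p = 0.0164, adjusted p = 0.64), and the 20 genes of that pathway had a median of -0.27, which was -0.49 without ExpPE rat 1 and -0.09 without ExpPE rat 5. LOC100362710, RGD1308147 and Tmem68 had differences of -0.83, -0.57 and -0.54 and none passed the adjusted p.

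**Figure D5:**
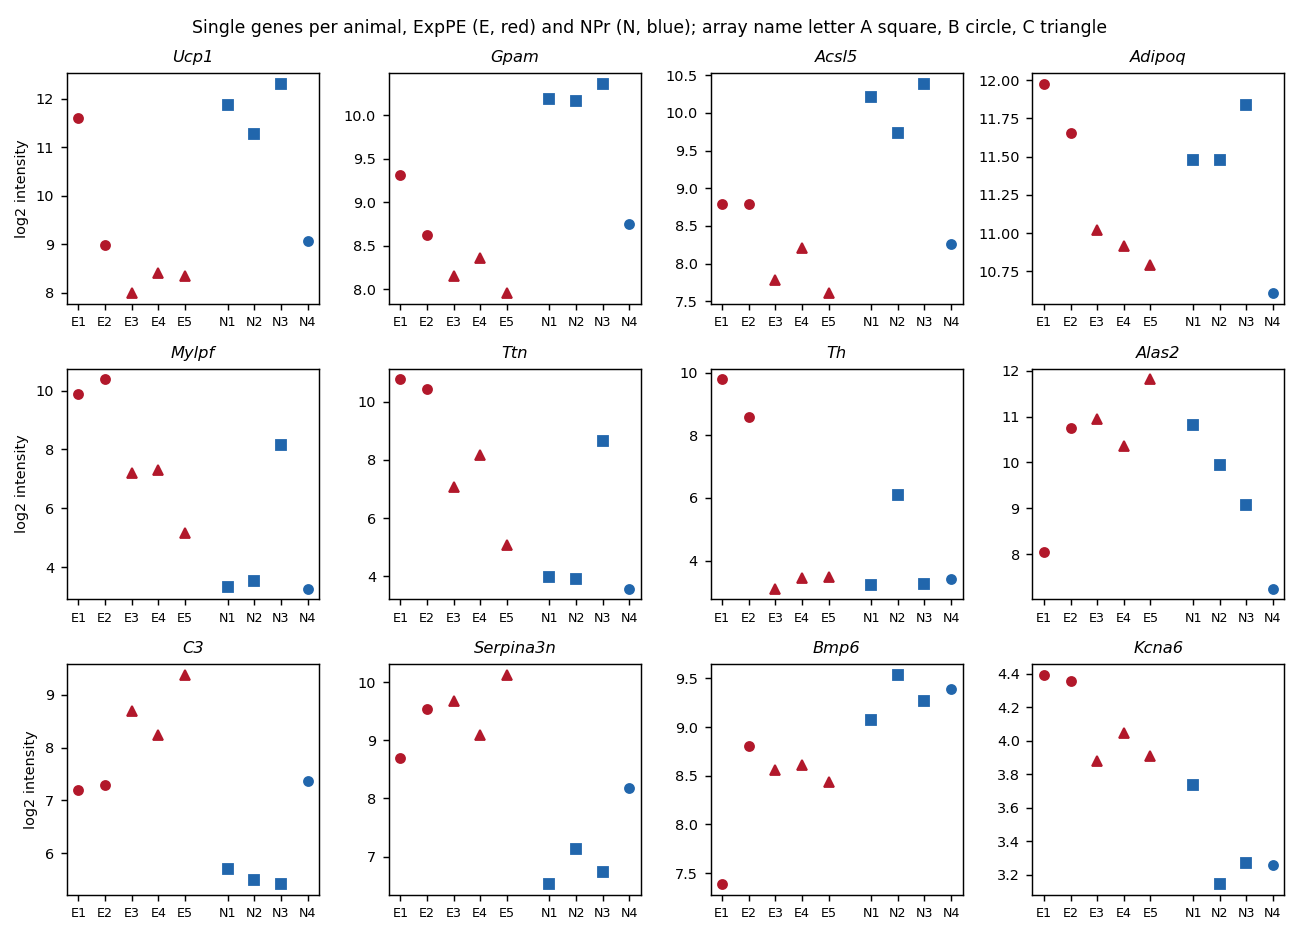
Log2 intensity of selected genes for each ExpPE rat (red, E1 to E5) and NPr rat (blue, N1 to N4), with the letter of the array name as the shape of the point. In Serpina3n, Bmp6 and Kcna6 the groups lie apart, while Ucp1, Gpam and Acsl5 are low in N4, and Mylpf, Ttn and Th are highest in E1 and E2.

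The saline-infused pregnant rats, compared with the same 4 NPr rats, had values on the same side for most of these genes. The NPr animals are shared by both comparisons, so the values are given side by side only. Ifi27l2b averaged 6.69 ± 0.04 in ExpPE, 7.10 ± 0.18 in Pr and 4.92 ± 0.29 in NPr (mean ± SD, n = 5, 5 and 4). Irf7 averaged 9.93 ± 0.83 in ExpPE, 9.67 ± 0.73 in Pr and 6.87 ± 0.11 in NPr, and Oas1a 6.99 ± 0.41 in ExpPE, 7.11 ± 0.34 in Pr and 4.62 ± 0.34 in NPr. The Pr mean of Irf7 lay below the ExpPE mean, and that of Ifi27l2b above it. Cxcl13 averaged 7.15 ± 1.16 in ExpPE, 7.88 ± 0.38 in Pr and 4.28 ± 0.44 in NPr, Mmp3 6.35 ± 0.78 in ExpPE, 6.70 ± 0.88 in Pr and 3.77 ± 0.36 in NPr and Tmem110 7.01 ± 0.28 in ExpPE, 7.12 ± 0.11 in Pr and 8.09 ± 0.41 in NPr. Of the 18 genes that rose, the Pr mean was above the ExpPE mean in 16, the ranges of ExpPE and Pr animals overlapped in 17, and every Pr animal was above every NPr animal in all 18. Of the 384 genes that were above NPr at the study threshold, 343 had a Pr mean above the NPr mean, with a median Pr minus NPr difference of 0.40. Of the 221 lower genes, 211 had a Pr mean below the NPr mean.

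Compared directly, ExpPE and Pr rats had 0 genes past limma's adjusted p (0%), and 1642 genes had an unadjusted p under 0.05 (8.48%). Of the 18 genes that rose, 3 had an unadjusted p under 0.05 in ExpPE vs. Pr, all lower in ExpPE: Rtp4 with a difference of -0.65 (unadjusted p = 0.00217), Ifi27l2b with -0.41 (unadjusted p = 0.00636) and Irf9 with -0.40 (unadjusted p = 0.0164). Of the genes higher than NPr at the study threshold 112 (29.2%), and of the lower ones 49 (22.2%), lay on the same side of Pr as well with an unadjusted p under 0.05. Among these were Kcna6, with an ExpPE minus Pr difference of 0.57 (unadjusted p = 0.0019), Psmg2 with -0.51 (unadjusted p = 9.36e-04), Krcc1 with -0.35 (unadjusted p = 0.00301), Rnf138 with -0.42 (unadjusted p = 0.00441) and Bmp6 with -0.74 (unadjusted p = 0.0078). These shares use the same ExpPE animals in both comparisons.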

How the data were processed

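Total RNA of whole abdominal aorta was hybridised to Affymetrix rat gene arrays, 1 per animal. The authors summarised the 14 arrays jointly with RMA (robust multichip average) and quantile normalization, assigned probes to Entrez genes by a custom definition, and deposited 1 intensity per gene and array on the linear scale. The version of RMA is not given in the sources used here. The fold changes, p-values and q-values of the authors' table were not used. The log2 of the intensities was analysed with no filter, so that array noise and the number of animals limit the precision. Both deposited tables hold the same values (largest gap 7.2e-10 on the log2 scale), and 0 columns were left out.

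A mean per group was fitted over all 14 arrays with limma 3.58.1 in R 4.3.3, with variances moderated towards a prior that depends on mean intensity. The Benjamini-Hochberg adjustment covered 19357 genes. The paper describes its own moderated t-test as paired. It does not state which rats were matched with each other, so the fit used here is unpaired and departs from that design. The fit was tested on simulated data with independent normal noise in each gene. Those data held no effect of the letter and no variation shared between genes, so the test does not bear on either. Other steps used Python 3.11.15, numpy 2.4.6, pandas 2.3.3 and matplotlib 3.10.9. The 49 gene lists and the rules for named genes were chosen with earlier results of these data known. Named genes were all past the adjusted p, the 15 smallest p per direction at the study threshold above background, the 10 largest differences per direction, up to 4 genes per list by p, and cell type markers. Genes named beyond these were chosen after their values were seen. Lists were matched by symbol. Promoter windows were matched by Entrez number, and by symbol where that failed, and 14973 genes had one.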

Additional observations from a re-analysis of the deposited data

Results flagged for a closer look

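The values of the genes past the adjusted p and of the 49 list scores were checked for single animals far from their group, in 136 groups of values, of which 5 stood out. About 1 in 20 such groups would do so by chance. NPr rat 4 had an Irf7 log2 intensity of 6.71, under the 6.92 to 6.93 of the other NPr rats. ExpPE rat 1 had a Siglec1 log2 intensity of 6.90, against 7.73 to 8.03 in the other ExpPE rats and still above the NPr rats. NPr rat 3 had a fast skeletal fibre score of 1.11, against -1.54 to -1.50 in the other NPr rats. NPr rat 1 had a score of 0.34 for the interferon genes themselves, against -0.11 to -0.04, with nearly all of these genes under the background level. NPr rat 2 had a cholesterol synthesis score of 0.32, against 0.15 to 0.18.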

How the results depend on the processing

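The 19 genes past the adjusted p kept their direction under all settings tried, and the count lay between 14 and 24 with other prior variances, a fit of ExpPE and NPr alone, array weights, other scalings, only genes above background or, chosen after seeing the data, the column code of the array names as a block. Leaving out 1 animal at a time gave 8 to 21 genes past the adjusted p and 361 to 1205 genes at the study threshold. The count past the adjusted p was 12 without ExpPE rats 1 and 2 and NPr rat 3, also chosen after seeing the data, and 17 without ExpPE rats 1 and 2, where the study threshold gave 1050. Array weights gave 1052 genes at that threshold. With the titles of the other table, which put the saline-infused pregnant rats in the place of ExpPE, 41 genes passed the adjusted p, the 19 among them. In ExpPE vs. Pr, 0 genes passed under each setting run.

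With the letter of the array names as a block, which rests on ExpPE rats 1 and 2 against NPr rat 4, 325 genes passed the adjusted p and 3735 the study threshold and 4 of the 19 kept the call. There C3 (-0.12), Gpam (0.22), Acsl5 (0.54), Ucp1 (1.23), Adtrp (1.42), Aspg (0.56), Otop1 (1.20), Fam57b (1.41), Ttc25 (0.62) and Pnpla3 (1.27) changed sign, with 1 NPr animal behind each. Among animals with the same replicate number in the titles, 7 of 13 pairs had a correlation of deviations from the group means over 0.1. The range was -0.398 to 0.395. Pairs with unlike numbers were not compared, so whether these numbers pair the animals was not settled. With the replicate number as a block, in the table that carries it and so with its titles, 53 genes passed the adjusted p and 819 the study threshold, 17 of the 19 among the 53. The cause of these changes was not tested.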
